A study of Mus musculus with 36 samples.

Results

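Eif1a and 5 Eif1a-like genes, Gm2016, Gm2022, Gm5039, Gm5662 and Gm8300, were followed through the 2-cell and the 8-cell stage of mouse embryos. The 6 rows, out of 23845 gene symbols in the table, were chosen by name, after their fall between the stages and their 8-cell levels in embryos given VP64 had been seen in these same libraries. The comparisons that entered that choice, VP64 against Ctrl and against NI at the 8-cell stage and the 8-cell against the 2-cell stage in NI and in Ctrl, are therefore described here without a test. The choice also described the 6 as genes of the 2-cell stage that persist with VP64, and the data went against that for Eif1a, whose mean level was higher at the later stage and about the same in every 8-cell group. The other 5 are called the copies below.

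The study sequenced RNA from 36 pools of 4 to 5 mouse embryos, and its title concerns LINE-1, a family of retrotransposons, and the accessibility of chromatin after fertilisation. By their labels of treatment, 7 of the 2-cell pools were Ctrl, 6 were KRAB and 4 were NI, while 7 of the 8-cell pools were VP64, 6 were Ctrl and 6 were NI. A repressor domain is known by the name KRAB and an activator domain of transcription by the name VP64. The labels do not spell out NI, do not say what Ctrl embryos received or which sequence was targeted, and give no strain. No group had VP64 at the 2-cell stage or KRAB at the 8-cell stage. The labels do not tie pools to animals or litters, so a p-value here reflects only how far pools of a group differ, and that may be technical.

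The protein eIF1A, made from Eif1ax and from Eif1a, binds the small ribosomal subunit and takes part in scanning of the mRNA and in choosing the start codon. The mouse genome carries a cluster of Eif1a-like genes that are known as part of the transient burst of transcription with which the 2-cell embryo switches on its own genome. Transcripts of that burst usually decline as cleavage goes on.

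On GRCm38 with the GENCODE vM21 annotation, the 5 copies lie on chromosome 12 within 810 kb, from 87514316 to 88324026. Gm8300, Gm2016 and Gm2022 lie on the plus strand and Gm5662 and Gm5039 on the minus strand, and all are annotated as protein coding there, while RefSeq lists Gm5039 as a transcribed pseudogene. Each has a coding sequence of 435 bases with its stop codon, and in 4 of the 5 it is preceded by 491 to 503 bases of 5′ UTR and followed by 840 to 935 bases of 3′ UTR in a transcript of 2 exons. For Gm2022 the annotated transcript holds the coding sequence alone.

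The coding sequences of the copies differed from each other at 19 of 435 positions, and any pair was 97.01% to 99.08% identical. The stretch below is shown because it holds 7 of those 19 positions within 75 bases, just before the stop codon. It was picked as the window of that length in which the copies differ most. Only windows in which no copy shares 31 bases in a row with Eif1a were considered. Even in this stretch few bases separate a read of one copy from a read of another. It is exonic and coding in all 5, spans bases 358 to 432 of the coding sequence, and is written 5′ to 3′ on the transcribed strand, with capitals at the positions that differ among the 5. The lines are taken from chr12:87876942-87877016 for Gm2016, chr12:88271557-88271631 for Gm5662, chr12:87895727-87895801 for Gm2022, chr12:87517254-87517328 for Gm8300 and chr12:88321050-88321124 for Gm5039.
Gm2016: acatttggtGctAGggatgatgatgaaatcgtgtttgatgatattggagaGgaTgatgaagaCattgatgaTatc
Gm5662: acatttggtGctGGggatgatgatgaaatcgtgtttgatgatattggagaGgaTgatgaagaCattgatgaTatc
Gm2022: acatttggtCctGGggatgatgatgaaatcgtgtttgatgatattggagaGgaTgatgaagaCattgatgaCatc
Gm8300: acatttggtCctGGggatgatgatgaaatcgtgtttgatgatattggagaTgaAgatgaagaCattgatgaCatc
Gm5039: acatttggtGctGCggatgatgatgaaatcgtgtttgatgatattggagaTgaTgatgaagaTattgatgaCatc
Gm2016 and Gm5662 differed at 1 base of this stretch and at 4 of their 435 coding bases, the closest pair. Gm5039 and Gm2016 differed at 5 bases of the stretch, as did Gm8300 and Gm2016.

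Single values of the copies are uncertain for that reason, because the authors' counting splits reads that fit more than 1 gene. Over whole transcripts, cut into overlapping words of 31 bases, 83.99% of the smaller word set was common to Gm2016 and Gm5662. Only 10.83% of the words of Gm2016, 15.91% of those of Gm5662 and 17.04% of those of Gm2022 occurred in no other member. With 64.3% and 74.42% of such words, Gm8300 and Gm5039 could be told apart better from the other members, and Eif1a with 96.4% best. These shares do not count words held in common with genes outside the members. Gm5039 was the closest member to BB287469 and to Gm21319, and Gm8300 to other annotated genes. How well reads of Gm5039 and Gm8300 can be told from reads of such genes was not tested. Of the other rows of the table, BB287469 shared 43.38% and Gm21319 16.56% of its words with the members, and both lie on chromosome 12. Eif1ax shared 2 words, and 13 further annotated genes that share words were not analysed here. Results are therefore given for each copy and for the sum of the copies.

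**Figure D1:**
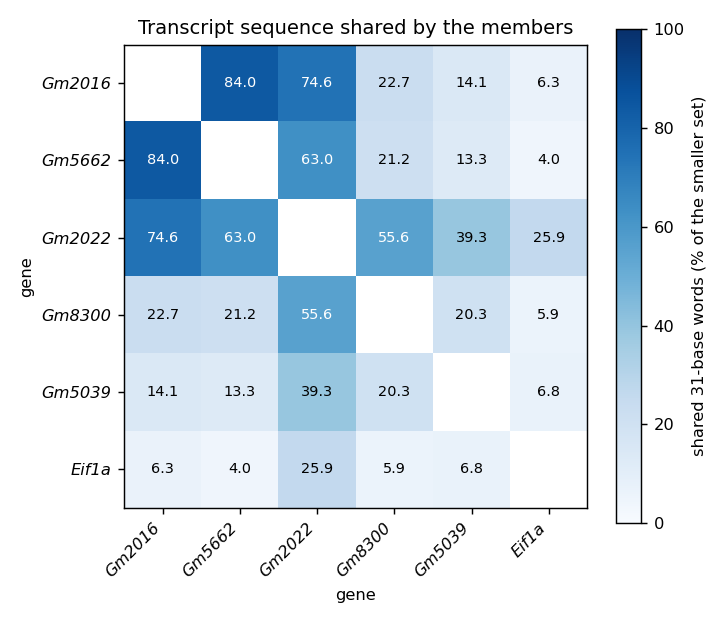
Share of 31-base transcript words common to each pair of members, in percent of the smaller word set of the pair, by colour and number (both axes list the 6 genes). Gm2016 and Gm5662 share 83.99%, Gm2022 shares 74.57% with Gm2016, and Eif1a shares 25.93% or less with every copy.

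The smallest and largest library totals were 1043740 and 10035066 counts among 2-cell pools, and 1103574 and 13583527 among 8-cell pools. Levels are in CPM, which are counts relative to the library's total, scaled by the trimmed mean of M values (TMM) over all 36 libraries. At the 8-cell stage 1 count was worth 0.0681 to 0.880 CPM. Among the 8-cell libraries 3 stood apart, with a TMM factor under 0.75 (a limit set after the factors were seen): Ctrl replicate 6 with 0.503 and 9672 genes detected, VP64 replicate 7 with 0.624, and NI replicate 6 with 0.731. Results at the 8-cell stage are also given without them. Of 27 tested maternal oocyte transcripts, the edgeR test called 23 lower and 1 higher at the 8-cell stage in NI and 24 lower and 2 higher in Ctrl, beside 31.4% and 39% of all genes called lower. Of 20 genes of the 8-cell and later embryo, 13 were higher and 3 lower in NI and 11 higher and 2 lower in Ctrl, beside 18.5% and 22.5% of all genes called higher. Of 20 cumulus and granulosa markers, 3 or 4 were at 0 counts in a 2-cell group and 6 to 11 in an 8-cell group. Their summed level lay between 70.5 and 576 CPM at the 2-cell stage, with the highest value in KRAB, and between 62.2 and 466 CPM at the 8-cell stage. Of 12 sperm markers 3 to 5 were at 0 in a 2-cell group and 7 or 8 in an 8-cell group, and their sum reached 86.5 CPM, in KRAB, and 12.3 CPM at the 2 stages. The part of such other cells in the levels of the members was not tested.

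At the 2-cell stage all 5 copies were abundant. In the 4 NI libraries the copies summed to 279.6, 784, 776 and 1669 CPM. In Ctrl the sum ranged from 487.1 to 999 with a median of 709.7 CPM, and in KRAB from 414 to 2672 with a median of 1180.0 CPM. The 3 groups overlapped, and the widest spread was within KRAB. Eif1a was far lower than this sum at the 2-cell stage, with 22.3, 29.5, 105.6 and 282 CPM in NI and a median of 36.9 CPM in Ctrl and 87.0 CPM in KRAB. It made up 1.29% to 19.7% of the summed CPM of all 6 in the 17 libraries of the 2-cell stage.

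By the 8-cell stage the copies had fallen and Eif1a had not. In NI the sum of the copies was 5.94, 7.67, 13.4, 15.8, 24.1 and 37.5 CPM, which is on average 1.98% of its 2-cell level. In Ctrl it was 16.7, 34.2, 58.4, 78.7, 103.3 and 145.6 CPM, on average 10.1% of the 2-cell level. The lowest NI and Ctrl library of the 2-cell stage lay above the highest of its own group at the 8-cell stage, for the sum and for each copy. The choice of the members used these contrasts, and the share of all genes that lay apart in this way was not counted. On the log2 scale the ratio of group means was -5.66 for NI and -3.31 for Ctrl, or -6.04 and -3.33 without the 3 libraries that stood apart.

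Each copy took part in that fall, though not equally in Ctrl. The log2 fold changes in NI ran from -5.12 ± 0.76 (SE, n = 6 and 4) for Gm5662 to -6.23 ± 0.63 for Gm8300. In Ctrl (n = 6 and 7) they ran from -2.15 ± 0.62 for Gm5662 through -3.23 ± 0.61 for Gm2016, -3.73 ± 0.53 for Gm8300 and -4.71 ± 0.68 for Gm2022 to -5.54 ± 0.80 for Gm5039. Gm5662 thus kept 22.4% of its 2-cell level in Ctrl and 2.90% in NI, whereas Gm5039 kept 2.26% and 1.81%. Over all 13158 genes tested the edgeR test called 31.4% lower and 18.5% higher at the 8-cell stage in NI, and 39% lower and 22.5% higher in Ctrl, with a median log2 fold change of -0.47 and -0.51. Since the choice of the 6 used these contrasts, their own calls are not read against those shares. In pools, fewer cells holding a transcript and less of it per cell cannot be told apart.

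Eif1a lies on chromosome 18, from 46597701 to 46616456 on the plus strand, and is annotated as protein coding with its whole coding sequence inside 1 exon. Its coding sequence has the same 435 bases as those of the copies and is 94.02% to 94.94% identical to them, against 85.52% for Eif1ax. Its level was 105.3 to 509.7 CPM in NI at the 8-cell stage (median 296), 115.8 to 499 in Ctrl (median 314) and 225 to 376 in VP64 (median 295). The 3 groups lay on top of each other, and 0 of the 7 VP64 libraries lay above the highest NI or the highest Ctrl library. Between the stages the log2 fold change of Eif1a was 1.38 ± 0.61 in NI and 2.42 ± 0.52 in Ctrl. The stages overlapped: NI replicate 4 of the 2-cell stage, at 282 CPM, lay above 3 of the 6 NI libraries of the 8-cell stage. With plain library totals the corresponding ratios of means were 1.06 and 1.97. Eif1a consequently made up 59.5% to 98.8% of the summed CPM of the 6 at the 8-cell stage, so that the sum of all 6 mostly followed Eif1a there.

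**Figure D2:**
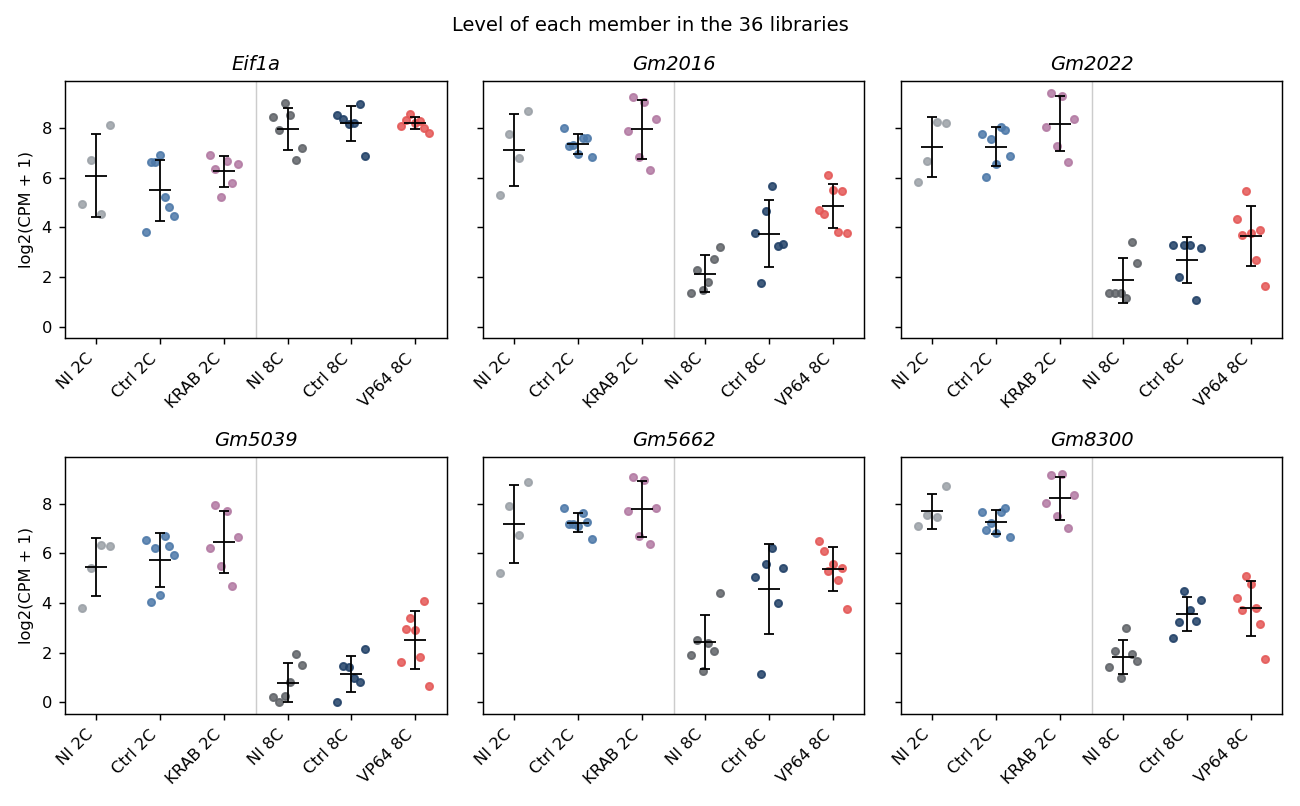
Level of each of the 6 genes as log2(CPM + 1) on the y axis in the 6 groups on the x axis, 1 point per library, with the group mean and SD of the log2 values in black. The mean of Eif1a is higher in every 8-cell group than in any 2-cell group, while the 5 copies are lower there and lowest in NI.

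**Figure D3:**
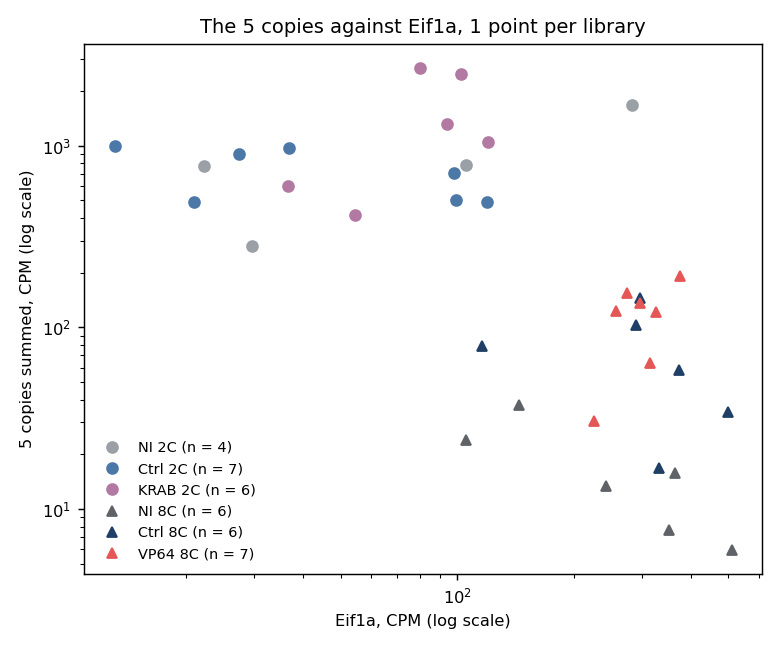
Summed CPM of the 5 copies (y axis, log scale) against the CPM of Eif1a (x axis, log scale), 1 point per library, circles for the 2-cell and triangles for the 8-cell stage. At the 8-cell stage NI lies between 5.94 and 37.5 CPM on the y axis, and 6 of 7 VP64 libraries lie above it, at overlapping levels of Eif1a.

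The 8-cell level of the copies in VP64 was the pattern for which they were chosen. The copies summed to 30.5, 63.6, 121.4, 123.1, 136.4, 154.5 and 192.7 CPM in the 7 VP64 libraries. Of these, 6 lay above the highest NI library at 37.5 CPM, and the exception was replicate 7, which is also 1 of the 3 libraries that stood apart. Against Ctrl, whose highest library had 145.6 CPM, 2 of the 7 lay above all and 5 lay above the Ctrl median. The mean was 117 ± 54.6 CPM (SD, n = 7) in VP64, 72.8 ± 47.1 (n = 6) in Ctrl and 17.4 ± 11.8 (n = 6) in NI. The log2 ratio of the VP64 mean to the NI mean was 2.76 and to the Ctrl mean 0.69, or 3.30 and 0.88 without the 3 libraries. The mean in VP64 was 16.3% of the mean in Ctrl at the 2-cell stage, the stage at which no VP64 library exists. For the sum of all 6, which holds Eif1a, the 2 ratios were 0.44 and 0.08.

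Gm2016 had 12.9 to 68.8 CPM in VP64 (median 24.97), 2.39 to 50.5 in Ctrl (median 10.98) and 1.53 to 8.23 in NI (median 3.19). All 7 VP64 libraries lay above all 6 NI libraries, and 1 lay above all Ctrl libraries. Gm5662 had 12.6 to 90.5 CPM in VP64 (median 42.2), 1.20 to 73.0 in Ctrl (median 36.7) and 1.39 to 20.4 in NI (median 3.75). For Gm5662, 6 of 7 VP64 libraries lay above all NI and 1 above all Ctrl libraries. These are the copies that shared most of their words. For Gm2016 all 7 VP64 libraries lay above the Ctrl median, and the overlap with VP64 came from Ctrl replicates 3 and 4, at 24.3 and 50.5 CPM. For Gm5662 5 of the 7 lay above the Ctrl median, and the groups overlapped more widely.

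Gm5039, which of the 5 copies shared the smallest part of its words with the other members, had the largest fitted difference between VP64 and Ctrl. It is also the member closest to BB287469 and Gm21319, of whose words 790 and 299 occurred in any of the members. It had 0.598 to 15.8 CPM in VP64 (2 to 27 counts, median 6.59 CPM), 0 to 3.42 in Ctrl (0 to 11 counts, median 1.32 CPM) and 0 to 2.81 in NI (0 to 11 counts, median 0.473 CPM). In VP64, 4 of 7 libraries lay above every Ctrl and every NI library. At these counts a library's value rests on few reads. Gm2022 lay above all Ctrl libraries in 5 of 7 VP64 libraries and above all NI libraries in 5 of 7, with medians of 12.6 CPM in VP64, 8.35 in Ctrl and 1.58 in NI. Gm8300 had medians of 12.9, 10.4 and 2.47 CPM, with 2 of 7 VP64 libraries above all Ctrl and 6 of 7 above all NI libraries.

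The fitted log2 fold changes of VP64 against Ctrl were 2.09 ± 0.83 (SE, n = 7 and 6) for Gm5039, 1.23 ± 0.63 for Gm2022, 0.84 ± 0.55 for Gm2016, 0.40 ± 0.61 for Gm5662, 0.38 ± 0.51 for Gm8300 and -0.11 ± 0.35 for Eif1a. Against NI (n = 7 and 6) they were 3.09 ± 0.62 for Gm2016, 2.93 ± 0.68 for Gm5662, 2.67 ± 0.85 for Gm5039, 2.41 ± 0.56 for Gm8300, 2.20 ± 0.66 for Gm2022 and 0.07 ± 0.35 for Eif1a. The order of the copies was thus different in the 2 contrasts, which share the VP64 libraries. Of the 9850 genes tested at the 8-cell stage, 0% passed an adjusted p of 0.05 in either contrast, and the median log2 fold change was -0.06 against Ctrl and -0.07 against NI.

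Ctrl embryos were also compared with NI embryos at the 8-cell stage, a contrast that the choice did not use but that shares its NI libraries with VP64 against NI and its Ctrl libraries with VP64 against Ctrl. Here Gm5662, Gm2016 and Gm8300 had the largest differences, and 0 of the 6 members passed the edgeR test after adjustment over all genes, where 0% of 9850 genes passed. The log2 fold change was 2.53 ± 0.68 (SE) for Gm5662, 2.25 ± 0.61 for Gm2016 and 2.03 ± 0.56 for Gm8300. By edgeR's quasi-likelihood test the unadjusted p-values were 0.00114, 0.00128 and 0.00148 in that order, and each Benjamini-Hochberg adjusted p was 1. It was 0.97 ± 0.67 for Gm2022, 0.57 ± 0.88 for Gm5039 and 0.18 ± 0.36 for Eif1a. Thus 3 of 6 members were higher at an unadjusted p under 0.05, beside 3.2% of all genes tested. Both groups had entered the choice through other contrasts, and Gm2016 and Gm5662 share most of their words. This count is therefore no independent support. For the sum of the copies 4 of 6 Ctrl libraries lay above all NI libraries, and the log2 ratio of means was 2.07, or 2.42 without the 3 libraries that stood apart. For Gm5662 NI replicate 6, at 20.4 CPM against 4.72 or less in the other 5, lowered the estimate. The estimate was 3.49 without that library, with an adjusted p of 0.316 by edgeR.

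The label of the 6 as genes that persist with VP64 was thus met in part. The copies were highest in VP64, intermediate in Ctrl and lowest in NI by their mean, VP64 and Ctrl overlapped in every copy, and on the log2 scale the larger step in that order lay between NI and Ctrl for Gm2016, Gm5662 and Gm8300. For Gm5039 it lay between Ctrl and VP64. For Gm2022 the fitted steps were close, at 0.97 from NI to Ctrl and 1.23 from Ctrl to VP64, and their order was not settled: without NI replicate 5 the former was 1.62, and by the group medians it was also the larger.

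**Figure D4:**
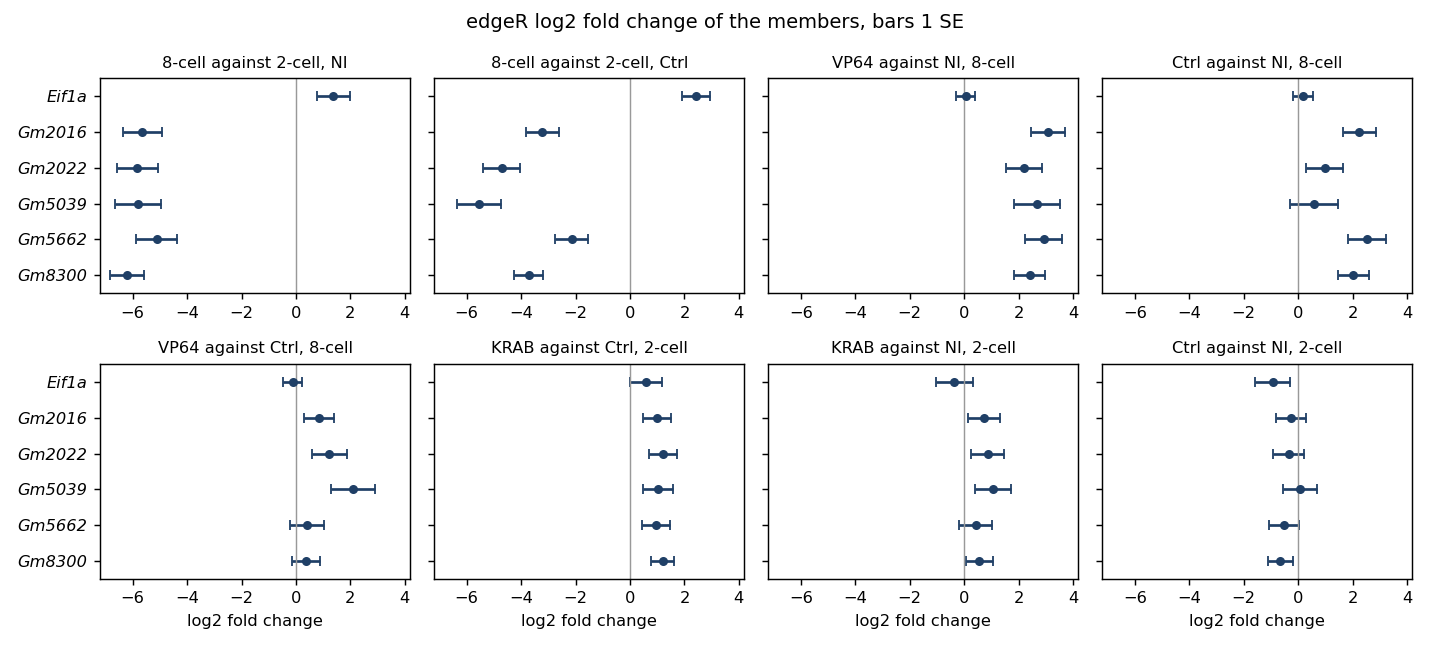
edgeR log2 fold change (x axis) of the 6 genes (y axis) in 8 comparisons, 1 panel each, with bars of 1 SE, and with the first named group minus the second. The copies lie far below 0 between the stages and above 0 in VP64 and Ctrl against NI at the 8-cell stage, while Eif1a lies above 0 between the stages and near 0 within the 8-cell stage.

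Other genes of the 2-cell embryo were set beside the members. Of 48 such genes in the table, from a list without the members, 47 were tested between the stages, and the edgeR test called 35 lower and 5 higher at the 8-cell stage in NI and 33 lower and 8 higher in Ctrl, beside 31.4% and 39% of all genes called lower. At the 8-cell stage 30 were tested, and 20 of the 30 were higher in VP64 than in NI by the sign of the fold change, with a median log2 fold change of 0.14, beside -0.07 for all genes. Against Ctrl 16 of 30 were higher, with a median of 0.08, beside -0.06 for all genes. Their summed level ranged from 6194 to 10620 CPM in VP64, 4096 to 22420 in Ctrl and 3708 to 20440 in NI. The most abundant of the list, Trim43b, Trim43a and Obox6, were themselves higher at the 8-cell stage, with Trim43a in NI at 255 CPM before and 2231 CPM after.

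Most genes that mark later embryos were lower in VP64 by sign, and 0 of them were called against Ctrl or against NI. Of 18 tested genes of the 8-cell and later embryo, 3 were higher and 15 lower in VP64 than in Ctrl by sign, with a median log2 fold change of -0.59, and against NI 3 were higher, with a median of -0.75. The medians of all genes were -0.06 and -0.07. Of the 3 most abundant of the list, Nanog had 0.06 ± 0.57 (SE) against Ctrl and 1.19 ± 0.59 against NI. Pou5f1 had 0.08 ± 0.52 and -0.91 ± 0.52, and Dppa5a -0.65 ± 0.55 and 0.39 ± 0.55. Their summed level overlapped, with 3574 to 15020 CPM in VP64, 4696 to 21830 in Ctrl and 4551 to 9342 in NI. Of 18 maternal oocyte transcripts, 9 were higher in VP64 than in Ctrl and 10 higher than in NI, with medians of -0.08 and 0.24. The part of embryonic stage in the level of the copies was not tested.

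KRAB against Ctrl at the 2-cell stage was not used to choose the members. All 6 had a higher fitted level in KRAB, and 0 of the 6 passed after adjustment, where 0% of 11799 genes passed. The log2 fold change was 1.21 ± 0.42 (SE, n = 6 and 7) for Gm8300, with an edgeR p of 0.00927 and an adjusted p of 0.234, and 1.21 ± 0.52 for Gm2022, with an edgeR p of 0.0290 and an adjusted p of 0.279. It was 1.01 ± 0.55 for Gm5039, 0.98 ± 0.50 for Gm2016, 0.95 ± 0.51 for Gm5662 and 0.58 ± 0.59 for Eif1a. At an unadjusted p under 0.05, 2 of 6 members were higher, beside 3.86% of all genes. The copies share reads, so they do not count as separate results.

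The difference in the sum of the copies came from 4 of the 6 KRAB libraries, with 1044, 1317, 2475 and 2672 CPM, above the highest Ctrl library at 999 CPM. The other KRAB libraries, with 414 and 596 CPM, lay among or below the 7 Ctrl libraries at 487.1, 487.2, 500.7, 709.7, 896, 966 and 999 CPM. The KRAB mean was 1420.0 ± 951 CPM (SD, n = 6), and the Ctrl mean 721 ± 233 CPM (n = 7). Without Ctrl replicate 6, the library with the lowest total, the smallest adjusted p of a member was 0.0558, by edgeR, and 159 of 11844 genes passed. Maternal oocyte transcripts had the opposite sign in this contrast, with 19 of 27 lower by sign and a median log2 fold change of -0.75. The list of other 2-cell genes had 27 of 46 higher and a median of 0.37, and all genes a median of -0.13.

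KRAB against NI and Ctrl against NI at the 2-cell stage gave 0 of 6 members called, with 0% of all genes called in both. At an unadjusted p under 0.05 by edgeR there were 0 of 6 members in each. Beside them stood 368 of 11799 genes in KRAB against NI and 2756 of 11799 in Ctrl against NI. Against NI (n = 6 and 4) the log2 fold changes in KRAB ran from -0.36 ± 0.68 for Eif1a to 1.07 ± 0.66 for Gm5039. In Ctrl against NI (n = 7 and 4) they ran from -0.94 ± 0.65 for Eif1a to 0.06 ± 0.63 for Gm5039. NI replicate 4, with 1669 CPM of the copies and 282 CPM of Eif1a, was the highest of its group in both, and without it the sign for Ctrl against NI turned for Eif1a, Gm2016 and Gm5662. The smallest adjusted p among the members was 0.998 in KRAB against NI and 0.375 in Ctrl against NI by edgeR.

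The division of the sum among the copies differed between the stages. Gm2016 and Gm5662 together made up 26.6% to 59.9% of the copies' CPM in the 17 libraries of the 2-cell stage, with a median of 42.5%, and 21.4% to 84.9% in the 19 libraries of the 8-cell stage, with a median of 67.2%. By group the mean share at the 8-cell stage was 54.97% ± 14.5 (SD, n = 6) in NI, 64.3% ± 22.1 (n = 6) in Ctrl and 70.2% ± 8.60 (n = 7) in VP64. At the 2-cell stage it was 40.9% ± 2.73 (n = 6) in KRAB, 46.6% ± 7.78 (n = 7) in Ctrl and 41.2% ± 16.2 (n = 4) in NI. The spread between pools at the 8-cell stage was wide enough for the groups to overlap, and the lowest share, 21.4%, was in Ctrl replicate 2, where the 5 copies had 28 counts in all.

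Most of that shift was in Gm5662, whose mean share was 21.0% ± 5.06 (n = 17) at the 2-cell and 38.7% ± 15.1 (n = 19) at the 8-cell stage. Gm2016 had 22.3% ± 4.42 and 24.8% ± 8.43. Gm2022 went from 23.6% ± 6.12 to 13.7% ± 8.66, Gm8300 from 25.5% ± 6.76 to 18.5% ± 11.97 and Gm5039 from 7.61% ± 2.69 to 4.30% ± 3.76. The shares are of counts and are not corrected for transcript length. Reads of near-identical copies are divided by estimation, and the part of that division in these changes of share among the 5 copies was not tested.

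**Figure D5:**
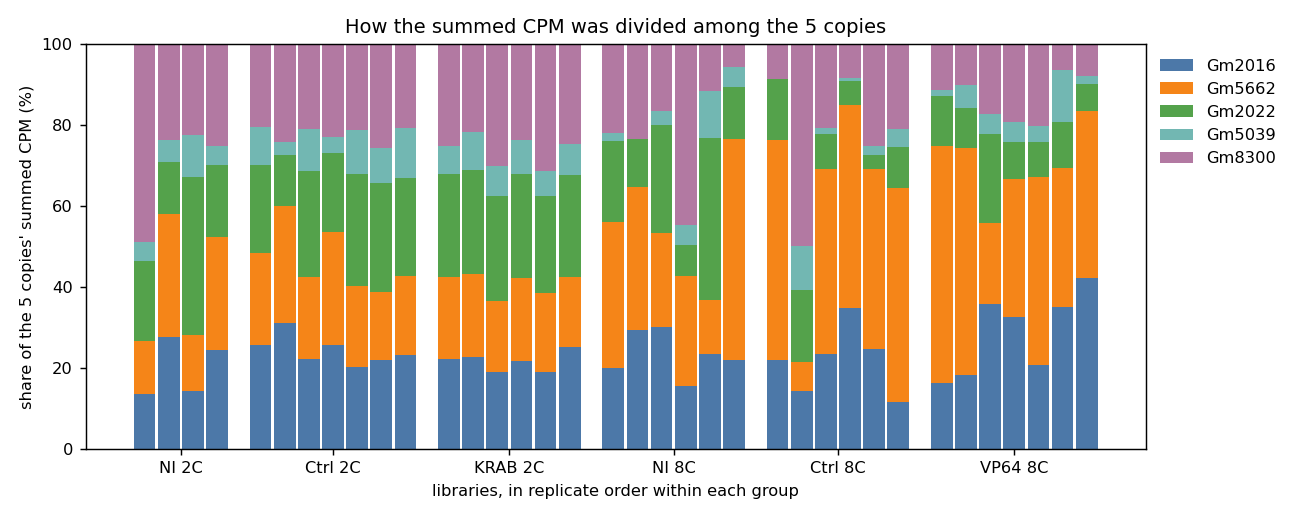
Share of the summed CPM of the 5 copies (y axis, in percent) held by each copy in each library (x axis, libraries in replicate order within the 6 groups). Gm2016 and Gm5662, stacked at the bottom, hold a median of 42.5% of the sum in 2-cell and 67.2% in 8-cell libraries.

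BB287469, the row with the most sequence in common with the members outside them, ran in parallel to the copies. It had 90.3 to 1468 CPM at the 2-cell stage, and at the 8-cell stage a median of 2.72 CPM in NI, 12.9 in Ctrl and 25.5 in VP64. All 7 VP64 libraries lay above the NI median and 3 lay above the highest NI library at 29.0 CPM. Gm21319 had 18.3 to 151 CPM at the 2-cell stage and at the 8-cell stage medians of 1.46 CPM in NI, 3.29 in Ctrl and 3.30 in VP64, and 0 of 7 VP64 libraries lay above all Ctrl libraries. With both rows added to the copies the log2 ratio of means was 2.54 for VP64 against NI and 0.77 for VP64 against Ctrl.

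Over the 36 libraries the copies followed each other closely, with Pearson's r of log2(CPM + 1) between 0.84 for Gm5039 with Gm5662 and 0.97 for Gm2022 with Gm5039. Eif1a went the other way, with r from -0.71 to -0.51 against the copies. Within the 19 libraries of the 8-cell stage the copies still followed each other, from 0.51 for Gm5039 with Gm5662 to 0.88 for Gm2016 with Gm5662, and Eif1a had r from -0.22 to 0.09 with them. These r describe libraries that share depth and stage, and pairs that share reads, and carry no test.

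The canonical gene Eif1ax, on chromosome X, and Eif1ad, which encodes another protein with an eIF1A-like domain, had the stage course of Eif1a and not that of the copies. The edgeR log2 fold change of Eif1ax was 1.97 ± 0.53 in NI (adjusted p = 0.00244) and 1.32 ± 0.43 in Ctrl (adjusted p = 0.00781). That of Eif1ad was 1.85 ± 0.48 in NI (adjusted p = 0.00174) and 1.99 ± 0.40 in Ctrl (adjusted p = 4.77e-05). In VP64 against Ctrl, Eif1ax had 0.07 ± 0.43 and Eif1ad -0.23 ± 0.36.

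Translation initiation factors as a list showed the same direction. Of the 48 measured, 29 were higher and 5 lower at the 8-cell stage in NI, and 30 and 4 in Ctrl, with medians of 1.71 and 1.60, beside -0.47 and -0.51 for all genes. Among all genes, 18.5% were called higher and 31.4% lower in NI, and 22.5% and 39% in Ctrl. Eif2s2, the beta subunit of the factor that carries the initiator tRNA, had 915 ± 539.6 CPM (SD, n = 4) at the 2-cell and 2701 ± 839 (n = 6) at the 8-cell stage in NI. Eif5, which triggers GTP hydrolysis by that factor, had 881 ± 179 and 3034 ± 1016 CPM. Both rose by the edgeR test in NI, with adjusted p-values of 0.00896 and 0.0141. Eif4e, the cap-binding protein, had a log2 fold change of 1.13 ± 0.63 with an adjusted p of 0.130. The rows of chromosome 12, the copies with BB287469 and Gm21319, were thus lower at the later stage, and Eif1a, Eif1ax, Eif1ad and most initiation factors were higher. Between VP64 and Ctrl 18 of 47 initiation factors were higher by sign, with a median of -0.14.

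The genes whose levels were most like those of the members were listed by Pearson's r of log2(CPM + 1) among 9502 genes with a mean of at least 5 CPM, leaving out those that share words. For the sum of all 6 over 36 libraries they were Zfp54 (0.85), Jam3 (0.84), Gm5891 (0.83), 9230110C19Rik (0.83), Rnf19a (0.82) and Far1 (0.82). For the sum of the copies, which was added after the course of Eif1a had been seen, they were Usp17lc (0.91), 2310069G16Rik (0.91), Hnmt (0.90), Zscan4a (0.90), Arg2 (0.90) and Ankrd22 (0.90). Zscan4a belongs to a family of zinc-finger genes that marks the 2-cell stage, and its mean was 50.03 CPM in NI at the 2-cell stage and 0.203 CPM in NI, 0.339 in Ctrl and 1.51 in VP64 at the 8-cell stage. A likeness over both stages mostly reflects the difference between them.

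Within the 19 libraries of the 8-cell stage the sum of all 6, dominated by Eif1a, was most like BC017643 (0.91), Clk1 (0.90), Ctsc (0.89), Kpna2 (0.89), Nifk (0.89) and Strap (0.89) among 7883 genes. The sum of the copies was most like Arg2 (0.77), Ddit4l (0.72), Glrx (0.68), Neto2 (0.68), Glrx5 (0.66) and Fam216a (0.65). Arg2, a mitochondrial arginase, is the 1 gene in both lists for the copies, and its mean at the 8-cell stage was 11.7 CPM in NI, 21.0 in Ctrl and 28.2 in VP64, in the order of the copies. That order is favoured by the choice of Arg2, which was picked for its likeness to the copies over these same libraries. Ctrl against NI gave Arg2 a log2 fold change of 0.87 ± 0.53, and VP64 against Ctrl 0.40 ± 0.50. In the lists for the copies, Usp17lc, Neto2 and Fam216a ran differently at the 8-cell stage. The other genes of those lists had the order of the copies by their means, which their choice likewise favoured. Usp17lc had -1.39 ± 0.95 in the first of these contrasts and 3.46 ± 0.91 in the second, so that its lowest mean was in Ctrl. Neto2 had 1.31 ± 0.48 and -0.27 ± 0.45. Ankrd22, which kept the order of the copies, had 2.92 ± 1.09 and 0.78 ± 0.90. Arg2, Usp17lc, Neto2 and Ankrd22 did not pass after adjustment in either contrast, where 0% of all genes passed. For the sum of all 6, the list over 36 libraries and the list over the 8-cell libraries had 0 genes in common.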

How the data were processed

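Pools of mouse embryos were profiled by RNA-seq from SMART-seq v4 cDNA (per the labels' protocols), which is amplified from very little RNA. The deposited values are expected counts (estimated counts that need not be whole) per gene symbol, which the authors produced on mm10 using Bowtie2 with RSEM (per the submitters' processing notes). RSEM splits a read that fits more than 1 gene by estimation. Versions and annotation: not given in the sources used here. Columns of samples that were not used numbered 0, and 0 pairs of libraries held identical values.

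Expected counts were rounded and tested with edgeR 4.0.16 (R 4.3.3, limma 3.58.1): quasi-likelihood test, robust option, TMM, filterByExpr (minimum count 10, minimum total 15), and a Benjamini-Hochberg threshold of 0.05 over all genes tested. Fits within a stage used every library of the stage, and fits between stages used all 36. All 6 members passed the filter in each fit. The test was checked on simulated counts. Sums over members are given as log2 ratios of group mean CPM and were not tested. Replicate numbers only name libraries. DESeq2 1.42.0 and other settings were tried as alternatives.

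The members and gene lists were chosen with earlier results of these data known. A list of further Eif1a-like genes was dropped after the files were seen, because most of its names had no row, and replaced by the rule of shared 31-base words. Named genes are the members, Eif1ax, Eif1ad, rows sharing words, the 6 genes most like the summed members, and genes among the 3 most abundant of each list. The sum of the 5 copies and the genes most like it were added after the values were seen. Sequences, words and coordinates were taken from GENCODE vM21, whose build GRCm38 is the same as mm10. Counting error and the number of pools both limit the precision, and reads carry no molecular identifiers.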

Additional observations from a re-analysis of the deposited data

Results flagged for a closer look

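Of 48 sets of values (the 6 members, the sum of the copies and BB287469 in each of the 6 groups) 4 held a value apart from the rest of the group by Dixon's gap test, which chance alone flags in about 1 of 20 groups. The sets are not independent, since the same libraries enter many of them. Gm2022 had 42.7 CPM in VP64 replicate 3, against 19.3 in the next library. Gm5662 had 20.4 CPM in NI 8-cell replicate 6, against 4.72 in the next. BB287469 had 29.0 CPM in that same library, against 7.07 in the next. Gm8300 had 7.08 CPM in NI 8-cell replicate 4, against 3.14 in the next.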

How the results depend on the processing

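The number of members called was 0 in all 4 tested comparisons under each alternative run: DESeq2's size factors in edgeR, no filter on low counts, DESeq2, a fit on all 36 libraries, and leaving out each library in turn. The number of all genes called did move: for KRAB against Ctrl DESeq2 called 242, and for Ctrl against NI it called 1086 among 2-cell and 1 among 8-cell libraries, while the fit on all 36 libraries called 6, 559 and 0, against 0 in each. Without Ctrl 2-cell replicate 6, edgeR called 159 for KRAB against Ctrl and 1374 for Ctrl against NI at the 2-cell stage. At an unadjusted p under 0.05 the counts of all genes were 1838, 2756, 368 for KRAB against NI, and 429 at the 8-cell stage. The sum of the 6 depended on Eif1a. Without it, which leaves the copies, the log2 ratio of means went from 0.08 to 0.69 for VP64 against Ctrl, from 0.44 to 2.76 for VP64 against NI, from 0.36 to 2.07 for Ctrl against NI at the 8-cell stage, from -1.70 to -5.66 between the stages in NI, and from -0.999 to -3.31 in Ctrl. The ratios for the copies kept their sign with plain library totals, DESeq2's size factors, medians over libraries, without Gm5662 and with 2 related rows, in all 8 comparisons. Leaving out 1 library in turn, they ranged from 0.48 to 1.01 for VP64 against Ctrl, from 2.58 to 3.13 for VP64 against NI and from 1.74 to 2.45 for Ctrl against NI at the 8-cell stage, and from -0.58 to 0.23 for Ctrl against NI at the 2-cell stage. In that last comparison the single-gene log2 fold changes also crossed 0, from -1.36 to 0.027 for Eif1a, -0.65 to 0.32 for Gm2016, -0.66 to 0.0027 for Gm2022, -0.28 to 0.33 for Gm5039 and -0.93 to 0.13 for Gm5662, as did Eif1a in KRAB against NI, from -0.76 to 0.61. With plain totals the ratio of Eif1a was 0.11 instead of -0.10 for VP64 against Ctrl and -0.0076 instead of 0.15 for Ctrl against NI at the 8-cell stage. Of the 6 genes most like the sum of the 6, 4 over 36 libraries and 0 over the 8-cell libraries were among the 6 by Spearman's rho. No paired analysis was possible because the labels carry no replicate numbers shared between groups. At the 8-cell stage Gm5039 had 0 to 27 counts per library, which limits what its values can show.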
